A study of Mus musculus with 24 samples.

Results

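The genes described here encode the protein subunits of the cytosolic ribosome. Rows were taken whose symbol is Rpl or Rps followed by a number and, where present, a paralogue letter, which matched 57 of 18470 rows. Rpl29 was left out, so 56 genes remained, 33 of the large subunit and 23 of the small subunit. Of these, 53 passed the filter on low counts (31 large, 22 small). Rpl32l, Rpl3l and Rps12l1 did not pass, with 0, 15 and 187 counts over all libraries. Because a gene could pass the filter through the group in which it was high, the 53 are the tested genes, not all 56.

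A ribosome joins a large and a small subunit, each built from ribosomal RNA and a fixed set of small basic proteins. The messenger RNAs of these proteins are among the most abundant of a growing cell, and most begin with a terminal oligopyrimidine tract through which mTOR signalling controls their translation. In B cells, ribosome production rises when a resting cell is activated and prepares to divide or to secrete antibody.

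Poly(A) RNA of sorted B cells from mice was measured by bulk RNA sequencing in 24 libraries, 4 in each of 6 groups. The cells are called csMBC in the labels. The mice had been sensitised with intranasal house dust mite extract and met the allergen again 6 weeks later. Circulating cells and, from the lung, CCR6+CD69+ and CCR6-CD69- cells were sorted, each from WT mice (SCAP +/+ hCD20-TamCre) and from SCAP cKO mice (SCAP fl/fl hCD20-TamCre). All groups thus carry hCD20-TamCre, a tamoxifen-inducible Cre under the human CD20 promoter, which acts in B cells, and in the cKO mice SCAP, the escort protein of the sterol-sensing SREBP factors, was deleted before the recall. The labels give no strain or age and write lung B cell as the source also for circulating cells. They give 2 batches, with replicates 1 and 2 of every group in batch 1 and replicates 3 and 4 in batch 2, and do not say what differed between them. Whether replicates were separate animals is not stated, and p-values then reflect only how much these samples differed from each other, which may be technical.

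The total count was 129025 to 8566243 per library. Libraries that stand apart were SCAP cKO lung CCR6-CD69- replicate 4, the shallowest, in which 48 of the 56 ribosomal protein genes had a count, WT circulating replicate 2 with 356782 counts, and 2 lung CCR6-CD69- libraries led by the macrophage gene Chil3 (WT replicate 2 and cKO replicate 1). The 9 macrophage and monocyte markers with a row together took 3.64% and 4.84% of counts in those 2, against at most 0.491% in any other library. The 7 NK and T cell markers took 0.120% to 0.323% in the circulating groups and at most 0.0263% in the lung groups. The B cell markers Ms4a1, Pax5, Fcmr and Bank1 were detected in all 24 libraries, Fcmr at 23.3 CPM at the lowest. Cd79a, Cd79b and Cd22, of the 8 listed, had no row. The B cell markers with a row took 0.184% to 0.406% of counts in the circulating groups. They took 0.393% to 0.571% in the lung CCR6+CD69+ groups and 0.270% to 0.589% in the lung CCR6-CD69- groups. Scap itself was at 66.2 to 134, 115 to 170 and 0 to 203 CPM (counts scaled to a library total of 1000000) in the CCR6+CD69+, CCR6-CD69- and circulating groups of WT mice, and at 43.5 to 138, 0 to 139 and 121 to 446 CPM in the matching cKO groups, so the ranges overlapped between genotypes. The part of marker levels and depth in the results below was not tested beyond the values given with and without these libraries.

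Coding sequences are shown for 5 genes with short ones that are named below. Rpl41 is the shortest of all, and Rpl39 and Rps28 had among the largest differences between batches. Rpl38 and Rps21 were called in the test over the 6 groups, and both calls were lost without the shallowest library. They are GENCODE M21 transcripts on GRCm38, an earlier build than the mm39 named for the counts, and lie at chr10:128548114-128549305, chrX:37082520-37085402 and chr17:33823036-33824562 on the minus strand and at chr11:114668548-114672331 and chr2:180257377-180258445 on the plus strand (whole transcripts). Each is given 5′ to 3′ with the start and stop codons in capitals.
Rpl41: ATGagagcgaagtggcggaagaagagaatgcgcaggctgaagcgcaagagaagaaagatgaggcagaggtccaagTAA
Rpl39: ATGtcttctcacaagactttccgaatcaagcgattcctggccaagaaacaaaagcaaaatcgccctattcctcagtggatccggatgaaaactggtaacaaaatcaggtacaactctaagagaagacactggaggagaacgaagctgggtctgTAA
Rps28: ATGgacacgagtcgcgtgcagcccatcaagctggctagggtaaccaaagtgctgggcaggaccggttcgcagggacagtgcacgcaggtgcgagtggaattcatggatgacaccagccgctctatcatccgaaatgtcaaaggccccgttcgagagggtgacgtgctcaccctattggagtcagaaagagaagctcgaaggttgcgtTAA
Rpl38: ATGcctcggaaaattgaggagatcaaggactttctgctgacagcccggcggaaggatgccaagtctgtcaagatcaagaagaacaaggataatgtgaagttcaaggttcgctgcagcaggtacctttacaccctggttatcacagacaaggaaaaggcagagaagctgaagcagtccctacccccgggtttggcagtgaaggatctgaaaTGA
Rps21: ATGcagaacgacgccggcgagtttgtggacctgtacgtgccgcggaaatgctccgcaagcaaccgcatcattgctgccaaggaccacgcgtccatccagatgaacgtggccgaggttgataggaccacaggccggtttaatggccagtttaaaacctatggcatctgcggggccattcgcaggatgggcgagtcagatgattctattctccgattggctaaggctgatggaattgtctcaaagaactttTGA
Rpl41 encodes 25 amino acids, Rpl39 51, Rps28 69, Rpl38 70 and Rps21 83.

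The ribosomal protein genes took a far larger share of counts in batch 1 than in batch 2, in every group. In batch 1 the share ran from 8.11% to 13.6% (mean 10.7% ± 1.72, SD, n = 12), and in batch 2 from 2.46% to 3.44% (3.00% ± 0.341, SD, n = 12). No batch 1 library overlapped a batch 2 library. The mean share was 3.57 times higher in batch 1, and within the 6 groups the ratio lay between 3.44 and 3.67, so it was nearly the same in each. Large-subunit genes took 5.03% and 1.47% on average, and small-subunit genes 5.69% and 1.53%. The exact 95% binomial interval of a library's share covers counting error only, and was 3.28% to 3.48% in the shallowest library.

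**Figure D1:**
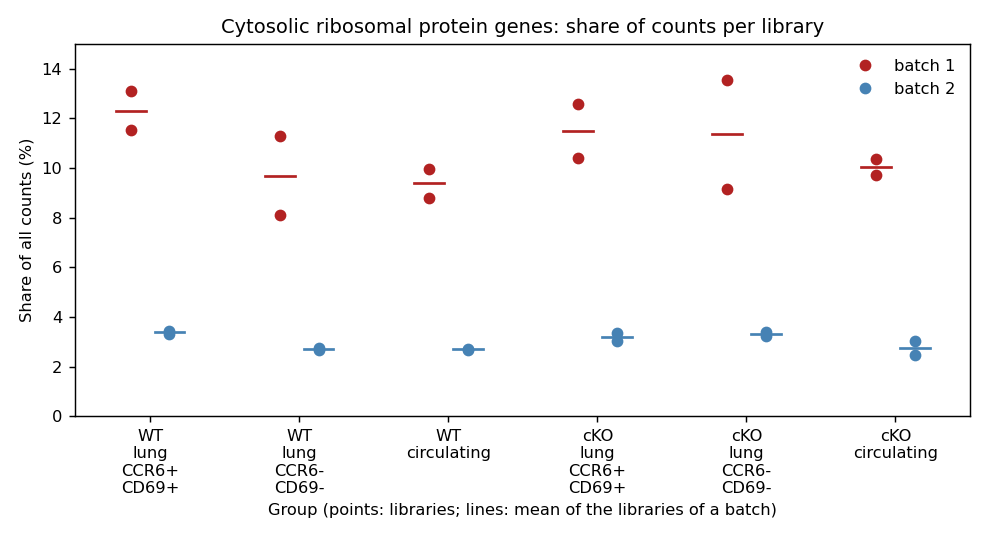
Share of all counts taken by the 56 ribosomal protein genes (y axis, %), by group, with 1 point per library and a line at the mean of the libraries of a batch. Batch 1 libraries sit between 8.11% and 13.6% and batch 2 libraries between 2.46% and 3.44%, and within each batch the WT lung CCR6+CD69+ libraries lie above the other WT libraries.

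Within the WT mice, lung CCR6+CD69+ cells had the highest share in both batches. Their share was 11.5% and 13.1% in batch 1, against 8.11% and 11.3% in lung CCR6-CD69- and 8.79% and 9.98% in circulating cells. In batch 2 it was 3.32% and 3.44%, against 2.65% and 2.76% and against 2.68% and 2.72%. The WT lung CCR6+CD69+ libraries thus did not overlap the other WT libraries within either batch, while the lung CCR6-CD69- and circulating groups overlapped each other in both. The lower batch 1 value of the lung CCR6-CD69- group, 8.11%, belongs to a library led by Chil3, and that of the circulating group, 8.79%, to the library of 356782 counts. Cell type markers also differed between these groups, in both directions. The 2 plasma cell markers with a row (of 7 listed) took 0.00887% to 0.0279% of counts in WT lung CCR6+CD69+, below the 0.0338% to 0.491% in lung CCR6-CD69- and the 0.0824% to 0.264% in circulating cells. The 4 dendritic cell markers with a row (of 7) took 0.00394% to 0.00658% in WT lung CCR6+CD69+, 0.0231% to 0.0498% in lung CCR6-CD69-, and 0.0308% to 0.0827% in circulating cells, with Xcr1 at 0 in the latter 2 groups. The 6 granulocyte markers were higher in WT lung CCR6+CD69+, at 0.00767% to 0.0207%, than in lung CCR6-CD69-, at 0.000761% to 0.00382%. In circulating cells they took 0% to 0.0275%, which overlapped. The B cell markers with a row took 0.393% to 0.504% in WT lung CCR6+CD69+. They took 0.380% to 0.589% in lung CCR6-CD69- and 0.193% to 0.406% in circulating cells. The part of these cells in the share was not tested. Leaving the 100 rows with the most counts out of the total, apart from ribosomal protein rows, kept the order, at 15.0% and 17.4% against 10.6% to 14.6% and 11.2% to 12.6% in batch 1. No test is given for a share summed over chosen genes.

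In the SCAP cKO mice the lung populations were not separated in this way. In batch 1 the share was 10.4% and 12.6% in lung CCR6+CD69+, 9.18% and 13.6% in lung CCR6-CD69- and 9.74% and 10.4% in circulating cells. In batch 2 it was 3.02% and 3.36%, 3.23% and 3.38%, and 2.46% and 3.02%. The lung populations overlapped in both batches, and both batch 2 lung CCR6-CD69- values lay above the WT values of that population. Against circulating cells, both batch 1 lung CCR6+CD69+ values were higher, the nearest being 10.39% and 10.37%. In batch 2 these groups overlapped, at 3.020% in lung CCR6+CD69+ against 3.023% in circulating cells. The 9.18% belongs to the cKO library led by Chil3, and without it the remaining batch 1 value of lung CCR6-CD69-, 13.6%, lay above both lung CCR6+CD69+ values. The 3.38% belongs to the shallowest library; the other batch 2 value, 3.23%, lay between the lung CCR6+CD69+ values and above the WT ones. In cKO mice, too, lung CCR6+CD69+ had the lowest plasma cell marker share, at 0.00851% to 0.0163% against 0.0372% to 0.143% and 0.0317% to 0.104%. Its granulocyte markers overlapped the other groups, at 0.00404% to 0.127% against 0% to 0.0441% and 0.00741% to 0.0364%.

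Gene by gene, batch 2 was lower for 52 of the 53 tested genes in edgeR's quasi-likelihood test with group and batch as terms (adjusted p under 0.05), and higher for none. Over all 6779 tested genes, 6.99% were called lower in batch 2. The median log2 fold change of the 53 was -2.65, beside -0.39 over all tested genes; scaling by total counts alone moved these medians to -2.25 and 0.00, so the genes fell relative to the rest under both. For 32 of the 53 the lowest batch 1 library lay above the highest batch 2 library, which held for 1.02% of all tested genes. Rps3a2, a second Rps3a gene with 632 counts in all, was not called (log2 fold change -2.35, SE 0.97, adjusted p = 0.141).

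**Figure D2:**
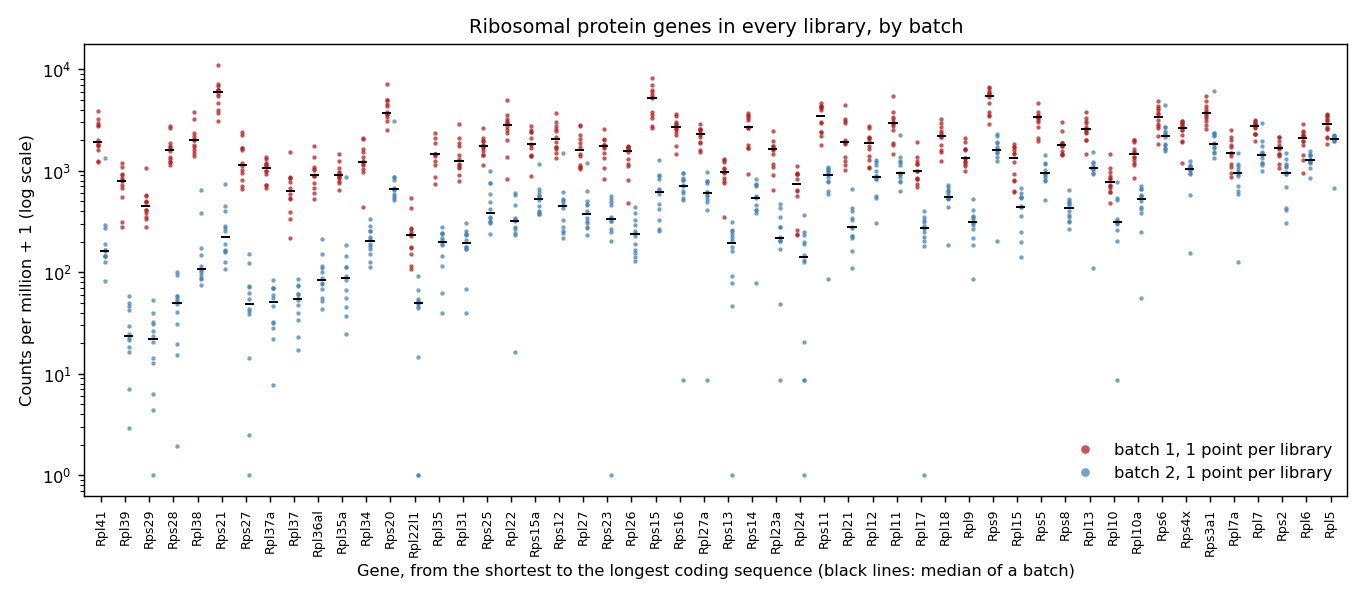
CPM + 1 on a log scale of the 52 tested genes with a coding length, in every library, ordered from the shortest to the longest coding sequence. Points are libraries and black lines batch medians; the batches are far apart at the left, from Rpl39 to Rpl37, and overlap at the right, from Rps6 to Rpl5.

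Among small-subunit genes, Rps21 had the smallest p. It was at 3104 to 11117 CPM in batch 1 (median 5911) and at 108 to 736 CPM in batch 2 (median 223), with no overlap. The log2 fold change was -4.95 (SE 0.25, adjusted p = 2.48e-24). Rps28 had the most negative value of all 53, from 1680 ± 530 CPM (SD, n = 12) to 46.8 ± 29.1, a log2 fold change of -5.76 (SE 0.43). Rps27, a zinc-finger protein of the small subunit, went from 1331 ± 576 to 55.5 ± 45.6 CPM (-5.27, SE 0.42). Rps15, which takes part in the export of the small subunit from the nucleus, went from 4960 ± 1749 to 627 ± 307 CPM (-3.51, SE 0.24). At the other end stood Rps6, the substrate of the S6 kinases, at 3338 ± 902 and 2292 ± 789 CPM. Its batches overlapped, and it still fell by 0.99 on the log2 scale (SE 0.20, adjusted p = 0.000413).

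Large-subunit genes spanned the same range. Rpl38 went from 2128 ± 702 to 176 ± 171 CPM (-4.35, SE 0.29), Rpl37a from 1023 ± 227 to 47.1 ± 23.6 (-4.91, SE 0.34), and Rpl21 from 2167 ± 1032 to 304 ± 147 (-3.25, SE 0.26). Rpl39, which lines the tunnel through which the new protein leaves the ribosome, went from 755 ± 276 to 27.3 ± 17.3 CPM (-5.37, SE 0.41). These 4 did not overlap between batches. Rpl5, which binds 5S ribosomal RNA and can bind the p53 regulator Mdm2, was at 2846 ± 617 and 1979 ± 419 CPM, and fell least (-0.96, SE 0.20, adjusted p = 0.000685). Rpl6 was next, at 1985 ± 552 and 1261 ± 190 CPM (-1.04, SE 0.21). Scaled by total counts alone, Rpl5 was no longer past the threshold (-0.52, adjusted p = 0.0675).

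The size of the batch difference followed the length of the coding sequence. Across the 52 tested genes with a length, Pearson's r between the log2 fold change and log2 coding length was 0.84 and Spearman's rho 0.89, and across 6389 other tested genes they were 0.40 and 0.42. These are descriptions across genes, which share libraries and are no replicates. With the length of the whole transcript the ribosomal protein genes had 0.56 and 0.69 and the others 0.45 and 0.48, so the gap between them was much smaller than with coding length. With the GC content of the coding sequence, r was -0.05 across the ribosomal protein genes. The 9 genes of at most 300 coding bases had a median of -4.95, the 17 of 300 to 450 bases -2.90, the 12 of 450 to 600 bases -2.60 and the 14 of 600 to 900 bases -1.54. Other genes of these lengths had medians of -2.43, -1.89, -1.10 and -0.78, with 49.3%, 29.7%, 13.0% and 7.63% called lower. The ribosomal protein genes thus had the lower median in each length class, and the part of length in the batch difference was not tested. Rpl41, with the shortest sequence, fell less than the next shortest (-3.74, SE 0.36).

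**Figure D3:**
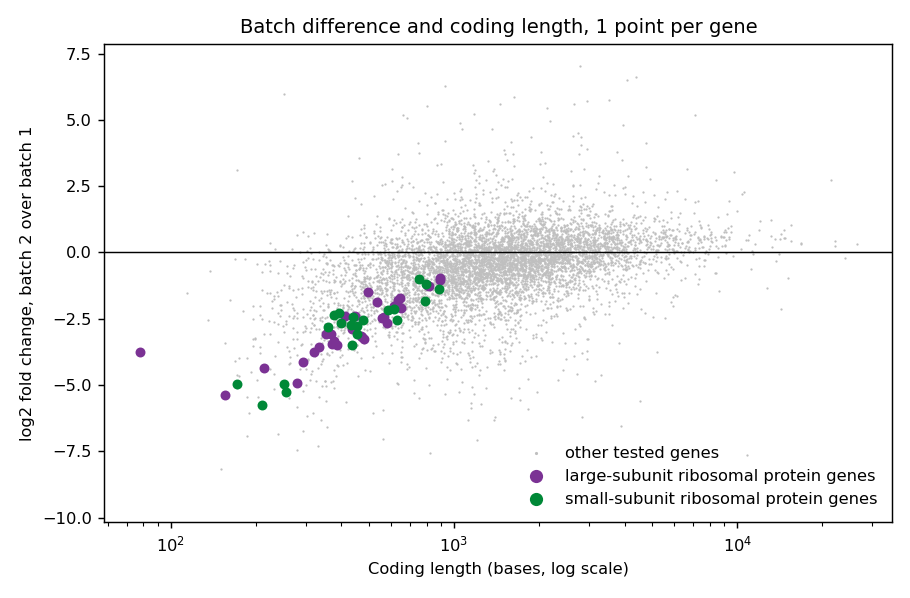
Log2 fold change of batch 2 over batch 1 (y axis) against coding length in bases (x axis, log scale), with 1 point per tested gene, grey for other genes and coloured for the subunits. Ribosomal protein genes rise from -5.76 for Rps28 to -0.96 for Rpl5 as the coding length grows, and lie along the lower side of the other genes of their length.

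The makeup of the ribosomal protein counts changed accordingly. The 10 shortest genes held 13.0% to 19.4% of the counts of all 56 in batch 1 and 2.09% to 9.34% in batch 2, where the highest value is that of the shallowest library and the median was 2.89%. The 10 longest held 15.2% to 22.6% and 37.5% to 47.5%. Per kilobase of coding sequence, mean levels in batch 1 were led by Rpl41 (28929 CPM per kilobase), Rps21 (23178), Rps20 (11489), Rps15 (11323), Rpl38 (9988) and Rps9 (8570). In batch 2 Rpl41 was again first, at 3434 CPM per kilobase, followed by Rps6 (3057), Rps3a1 (2791) and Rps9 (2718), while Rps21 stood in place 23 and Rpl38 in place 28 of 53. The place of Rpl41 rests on dividing by 78 coding bases, where its transcript has 582. Its batch 2 mean of 268 CPM (median 162) also includes 1341 CPM in the shallowest library. Levels per kilobase of transcript were not computed. An order of these genes by level per kilobase of coding sequence therefore depended on the batch.

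Paralogues and near-identical copies are less certain, since the counting could split reads between them. Rpl22, whose loss in mice impairs lymphocyte development, was at 7004 CPM per kilobase of coding sequence in batch 1, above its paralogue Rpl22l1 at 662, and at 858 against 115 in batch 2. Rpl36al was at 2980 and 295 CPM per kilobase. Rps3a1 was at 3755 and 2219 CPM, against 20.4 and 4.96 for Rps3a2, and Rpl3l, a paralogue of striated muscle, had a count in 4 libraries. The pseudogene row Rpl9-ps6 was at 1736 CPM in batch 1 and 507 in batch 2, above Rpl9 itself at 1440 and 303, and held 92.5% of the counts of the 97 ribosomal protein pseudogene rows. Values of Rpl9 are therefore uncertain.

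Other genes of the translation machinery, from lists chosen with earlier results known, are given beside them. For comparison, 6.99% of all tested genes were called lower in batch 2, and the median log2 fold change over all was -0.39. Of the ribosome genes outside the symbol pattern, Rplp0, of the ribosomal stalk, fell by 1.22 on the log2 scale in batch 2 (SE 0.19), Rack1, a scaffold protein on the small subunit, by 1.29 (SE 0.28) and Rpsa, also of the small subunit, by 0.65 (SE 0.19, adjusted p = 0.0217). Of 23 translation factors, 8 were lower and 0 higher (median -0.54), led by Eif1 (-3.42, SE 0.42), which guides start codon choice, and Eif3f (-1.98, SE 0.33). Of 29 ribosome assembly factors, 4 were lower (median -0.49), among them the polymerase subunit Polr1d (-2.48) and Nop10 (-3.52), and of 10 growth control genes 0 were called by edgeR (2 at an unadjusted p under 0.05; median -0.49). Among like gene families, 36 of 63 nuclear-encoded respiratory chain genes (median -2.52), 6 of 44 mitochondrial ribosomal protein genes (-1.67) and 4 of 28 proteasome genes (-1.15) were lower. The differences between these families and the ribosomal protein genes were not tested. Among the 6 groups edgeR called 0 genes of the translation factor, assembly factor and growth control lists, with 4, 1 and 0 at an unadjusted p under 0.05 in the order given. Of all 6779 tested genes, 3.47% were called there and 1031 had an unadjusted p under 0.05.

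Among the 6 groups, with batch as a term, 3 of the 53 genes differed in edgeR's quasi-likelihood test: Rpl38 (adjusted p = 0.00972), Rps21 (0.0191) and Rpl35a (0.0473). Over all tested genes 3.47% were called, so 3 of 53 is near the background. DESeq2 called 6 of 53, beside 9.34% of all genes with an adjusted p, and limma voom 10 of 53, beside 10.3%. Rpl38, whose loss disturbs body patterning in mouse embryos, was at 378 and 651 CPM in the batch 2 libraries of SCAP cKO lung CCR6-CD69-, and at 73.0 to 171 CPM in the other 10 libraries of that batch. In batch 1 the same group was at 1396 and 3750 CPM, the lowest and the highest of that batch. Rps21 was at 397 and 736 CPM in that group in batch 2, where WT lung CCR6+CD69+ reached 449 CPM, and at 4666 and 11117 CPM in batch 1. Rpl35a, a large-subunit protein whose human counterpart is mutated in some cases of Diamond-Blackfan anaemia, was at 111 and 868 CPM in it, against 23.4 to 185 CPM in the other batch 2 libraries. The group thus held the highest library for all 3 genes in each batch, and its libraries overlapped the other groups in batch 1.

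All of these values rest in part on the shallowest library, cKO lung CCR6-CD69- replicate 4. Without it, the adjusted p was 0.134 for Rpl38, 0.126 for Rps21 and 0.616 for Rpl35a, and the single gene called was Rpl21 (0.0356). Rps21 was also not called without replicate 2 of that group (0.0592), and the call of Rpl35a was lost on leaving out 15 of the 24 libraries in turn. Leaving out replicate 1 of that group, which is led by Chil3, gave 6 called genes. Within batch 1 alone 0 of 53 genes were called by edgeR (2.66% of all tested genes; 1 gene at unadjusted p under 0.05; lowest adjusted p 0.243), and within batch 2 alone also 0 (0.29%; 4 genes; lowest adjusted p 0.322). Over the alternatives the adjusted p ran from 0.000144 to 1.00 for Rpl38, from 1.15e-06 to 1.00 for Rps21 and from 0.00358 to 1.00 for Rpl35a. In bulk samples, fewer cells of a type and less RNA per cell cannot be told apart.

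**Figure D4:**
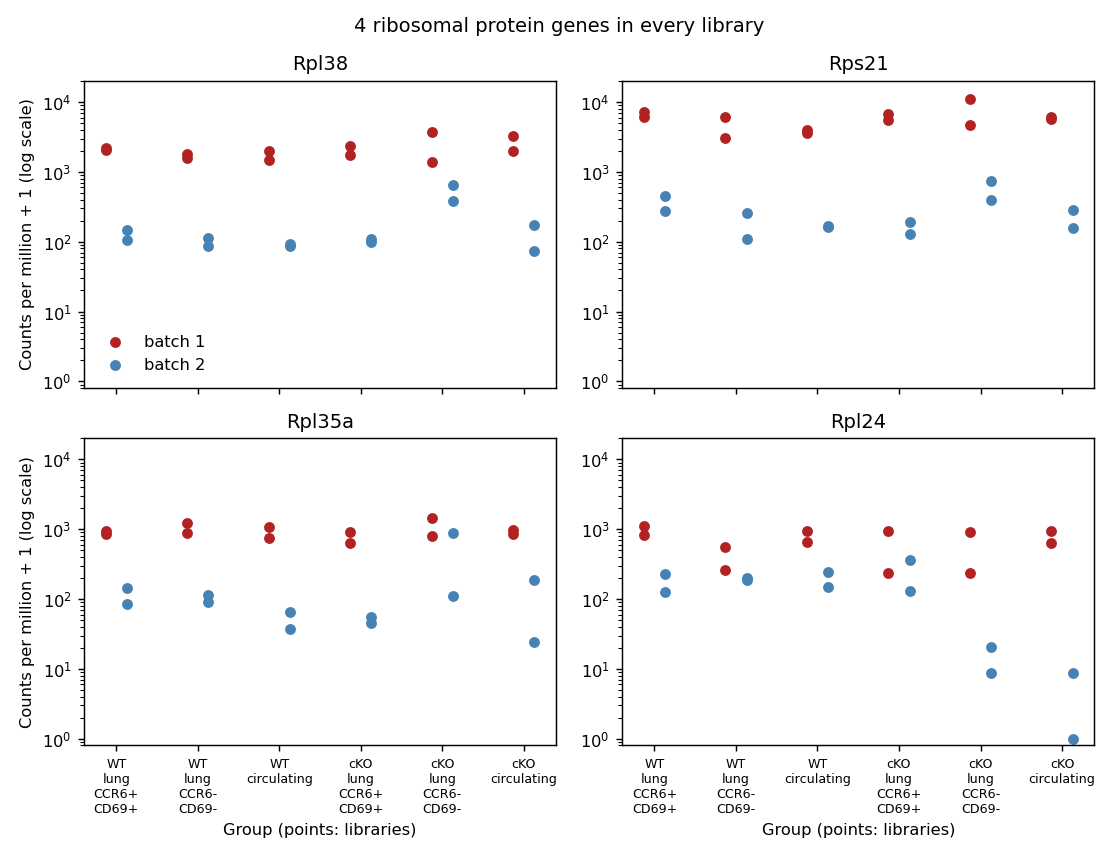
CPM + 1 on a log scale of Rpl38, Rps21, Rpl35a and Rpl24 in every library, by group and batch. In batch 2 the SCAP cKO lung CCR6-CD69- libraries are high for Rpl38, at 378 and 651 CPM, and Rpl24 is at 0 to 19.6 CPM in 4 cKO libraries of that batch and above 100 CPM in its other libraries.

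Group differences that themselves differed between the batches were called for 1 of 53 genes, Rpl24 (edgeR, adjusted p = 0.0192), beside 0.0738% of all tested genes. DESeq2 called 3 (8.76% of all) and limma voom 1 (1.37%). Rpl24 is a large-subunit protein at the interface with the small subunit. In batch 2 it was at 19.6 and 7.75 CPM (26 and 1 counts) in SCAP cKO lung CCR6-CD69- and at 0 and 7.65 CPM (0 and 16 counts) in SCAP cKO circulating cells, against 125 to 366 CPM in the other 8 libraries. In batch 1 those cKO groups were at 236 and 916 CPM and at 627 and 928 CPM, within the 233 to 1112 CPM of that batch. The low values were therefore confined, among these 24 libraries, to 4 cKO libraries of batch 2. The call was lost on leaving out 6 of the 24 libraries in turn (highest adjusted p 0.117), and without the 2 libraries led by Chil3 (0.238). Without cKO lung CCR6-CD69- replicate 3, 12 of the 53 genes were called, with 259 among all tested genes.

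In pairwise comparisons of groups, 0 of the 53 genes were called by edgeR in each of the 9. For the WT populations the share of all tested genes called was 0.295% for lung CCR6+CD69+ against lung CCR6-CD69-, 1.18% for lung CCR6+CD69+ against circulating and 0.177% for lung CCR6-CD69- against circulating cells. At an unadjusted p under 0.05 there were 3, 3 and 0 ribosomal protein genes, among 226, 788 and 585 of all 6779. DESeq2 called 0 in each (0.797%, 4.15% and 1.87% of all genes), and limma voom called 1 in the first (Rps12, adjusted p = 0.0212) and 0 in the others (2.32%, 4.1% and 0.502% of all genes). These comparisons share libraries with each other.

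Most log2 fold changes of WT lung CCR6+CD69+ cells were above 0, although edgeR called none. Against lung CCR6-CD69-, 48 of 53 log2 fold changes were above 0 (median 0.29, over all tested genes -0.02), and against circulating cells 45 of 53 (median 0.40, over all 0.09). Fitted in each batch alone, 38 were above 0 in both batches, 2 below 0 in both and 13 opposite in the first comparison, and 33, 3 and 17 in the second. Against lung CCR6-CD69- the count above 0 was 47 with relative log expression factors and 47 with total counts alone, 42 without the 2 libraries led by Chil3, and 40 and 49 in batches 1 and 2 alone. Against circulating cells it was 27 without the 2 libraries under 500000 counts, called small from here on (median 0.02, over all -0.19). In the same comparison the median was below that of all genes in batch 1 alone (0.20, over all 0.26) and with limma voom (0.23, over all 0.44). Large- and small-subunit genes had medians of 0.26 and 0.35 against lung CCR6-CD69-, and 0.40 and 0.41 against circulating cells. For lung CCR6-CD69- against circulating cells, 30 were above 0 (median 0.02, over all 0.12), which became 13 without the small libraries and 43 without those led by Chil3.

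Rps12 had the highest value against circulating cells, at 1.02 (SE 0.42, adjusted p = 0.293). It was at 3732 and 2585 CPM in batch 1 and at 614 and 512 CPM in batch 2 in WT lung CCR6+CD69+. The WT circulating libraries were at 1499 and 1707 and at 281 and 242 CPM, and the WT lung CCR6-CD69- libraries at 1917 and 1332 and at 326 and 255 CPM. Rps12 of WT lung CCR6+CD69+ thus lay above both other WT groups in each batch. Rpl21 had the highest value against lung CCR6-CD69-, at 1.18 (SE 0.42, adjusted p = 0.586), with 4422, 1937, 665 and 341 CPM in replicates 1 to 4 against 1247, 1348, 270 and 215 CPM. The lowest values were those of Rps3a2 against lung CCR6-CD69- (-0.73, SE 1.55) and of Rpl10, needed in the last steps of large-subunit maturation, against circulating cells (-0.60, SE 0.51). Between lung CCR6-CD69- and circulating cells the range was -0.63 (Rpl10, SE 0.51) to 0.73 (Rps29, SE 0.72).

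**Figure D5:**
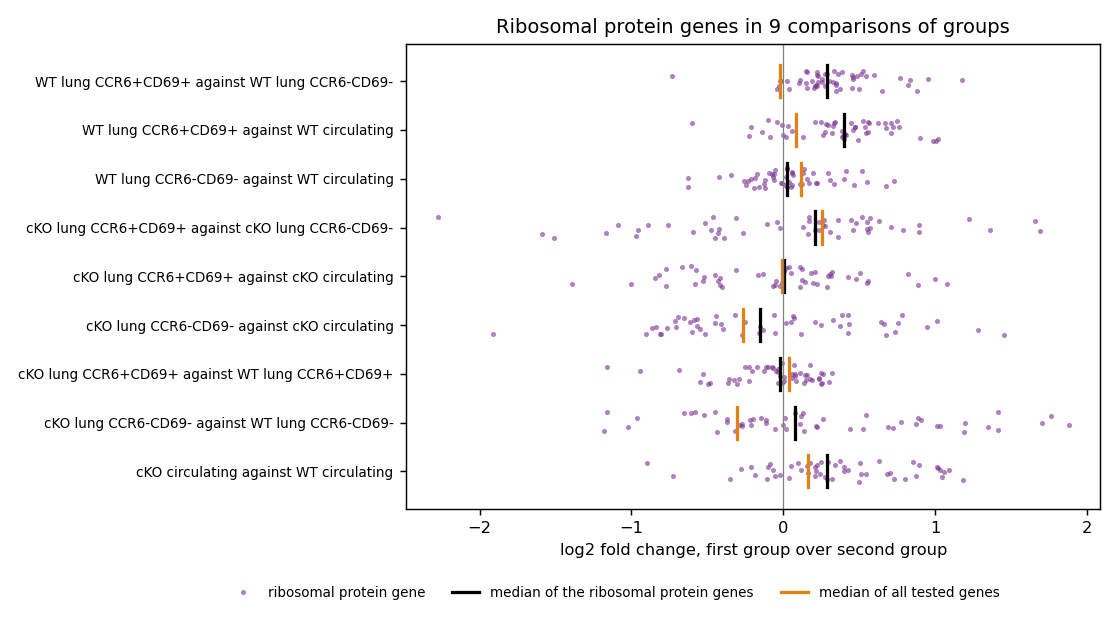
Log2 fold change of each of the 53 tested genes (points, x axis) in the 9 comparisons (y axis), with the median of these genes in black and that of all tested genes in orange. In WT lung CCR6+CD69+ cells the black lines, at 0.29 and 0.40, lie to the right of the orange ones, at -0.02 and 0.09, and points are most spread where SCAP cKO lung CCR6-CD69- cells enter.

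In the SCAP cKO mice, the share of all tested genes called was 0.457% for lung CCR6+CD69+ against lung CCR6-CD69-, 1.53% for lung CCR6+CD69+ against circulating and 0.31% for lung CCR6-CD69- against circulating cells. With 0 ribosomal protein genes called by edgeR in each, 9, 3 and 7 had an unadjusted p under 0.05, among 798, 867 and 960 of all 6779. DESeq2 called 5, 0 and 3, beside 4.97%, 7.49% and 8.08% of all genes with an adjusted p. Limma voom called 0, 2 and 0, beside 0.605%, 2.07% and 0.177%. Medians were 0.21, 0.01 and -0.15, over all tested genes 0.26, -0.01 and -0.26, and without the small libraries they were -0.04, 0.06 and -0.01. Rpl35a was lowest in the first comparison (-2.28, SE 0.61, adjusted p = 0.0799) and highest in the third (1.46, SE 0.59, adjusted p = 0.259). Without the shallowest library its value in the first was -0.74 and in the third turned to -0.13, and without the 2 libraries led by Chil3 its value in the first was called (-2.72, adjusted p = 0.0182). Over the alternatives the value in the first ran from -3.49 to -0.52, with an adjusted p of 0.00194 to 0.933. Rpl22l1 was lowest against circulating cells in both lung populations, at -1.39 (SE 0.84) and -1.91 (SE 0.87). Rpl24 was highest in lung CCR6+CD69+ against both others, at 1.69 (SE 1.19) and 1.08 (SE 1.21).

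For SCAP cKO against WT, edgeR called 0 ribosomal protein genes in each of the 3 populations, and 0% of all tested genes in each. In the order CCR6+CD69+, CCR6-CD69-, circulating, 1, 12 and 4 had an unadjusted p under 0.05, among 155, 496 and 693 of all 6779. DESeq2 called 0, 7 and 0 there, beside 0.059%, 2.68% and 3.38% of all genes with an adjusted p (2836 genes in the second, 52 of them ribosomal protein genes). Limma voom called 0 in each, and 0% of all genes. In lung CCR6+CD69+ cells the median was -0.02 (over all 0.04), and values ran from -1.16 for Rps28 (SE 0.60) to 0.32 for Rps14 (SE 0.43). In lung CCR6-CD69- cells the median was 0.08 (over all -0.31), from -1.18 for Rps27 (SE 0.63) to 1.88 for Rpl38 (SE 0.46, adjusted p = 0.400). Without cKO lung CCR6-CD69- replicate 1, which is led by Chil3, Rpl38 was called there (2.26, adjusted p = 0.0214), while without the shallowest library its value was 1.21. Over the alternatives it ran from 0.51 to 2.52, with an adjusted p of 0.00904 to 1.00. Without the small libraries 46 of 53 genes were above 0 in this population, against 29 with all libraries (median 0.43, over all 0.12). In circulating cells 41 of 53 were above 0 (median 0.29, over all 0.16), from -0.90 for Rpl24 (SE 1.18) to 1.19 for Rpl27 (SE 0.43, adjusted p = 0.419). That count was 27 with total counts alone (median 0.02, over all -0.12), 34 without the small libraries and 29 in batch 2 alone. A test of whether the genotype effect differed between populations, added after the data were seen, called 0 of 53 genes in edgeR and 0% of all tested genes, with 7 at an unadjusted p under 0.05, among 426 of all genes (lowest adjusted p 0.609).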

How the data were processed

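The table the authors deposited holds whole-number counts by gene symbol, and all 24 sample columns were used. FastQC, STAR, Salmon and mm39 stand in the submitters' processing notes without versions, and which tool made the counts is not given in the sources used here. Strand handling and the treatment of multi-mapping reads, which bear on paralogues and pseudogenes, are not given either. Per the labels' protocols, RNA was extracted with a Zymo microprep kit, and an xGen kit adapted to few cells made the libraries.

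From these counts, CPM are counts per 1000000 of a library's total, with no scaling factor, and shares are percentages of that total over the rows analysed. Tests used edgeR 4.0.16 in R 4.3.3: TMM factors, the filterByExpr filter by group (6779 genes), and a robust quasi-likelihood F-test on all 24 libraries with group and batch as terms. Benjamini-Hochberg adjustment ran over all tested genes with a threshold of 0.05, and an SE is the log2 fold change divided by the root of F. The biological coefficient of variation was 1.10. Libraries of 129025 to 8566243 counts put the level of 3 counts at 23.3 to 0.350 CPM. The fits were tested on simulated data. Alternatives were other scaling factors and filters, batches alone, no batch term, a replicate block, subsets of libraries, DESeq2 1.42.0 and limma 3.58.1 (voom with quality weights). Lengths and sequences came from the principal GENCODE M21 transcripts, matched by symbol for 53 of the 56 genes. A few items are not reported here.

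Genes were named by rule: those called (at most 8 by p), otherwise the highest and lowest log2 fold change of each pair of groups among genes of at least 5 CPM; for the batches the 6 smallest p and the 3 values at each end; the 6 highest levels per kilobase; paralogues; and 2 genes per context list. Those members and lists were chosen with earlier results of these data known. Genes of those lists without a row are not analysed here.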

Additional observations from a re-analysis of the deposited data

How the results depend on the processing

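For the batch difference, 52 genes were called with each single library left out (52 to 52), and no tested ribosomal protein gene had a higher value in batch 2 under the scalings, filters, library subsets and tools run. The share ratio of 3.57 became 3.16 with the 4 ribosome genes outside the pattern that had a row (of 7 listed). It was 3.67 without the libraries under 500000 counts, 3.71 without the 2 libraries led by Chil3 and 3.84 without both sets. With single libraries left out it was 3.48 to 3.65.

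Between groups, counts of called genes were small and moved with the setting. For any difference among the 6 groups, 3 became 7 with relative log expression factors, 8 with no filter, 6 without the Chil3 libraries, 0 in batch 1 alone, 0 in batch 2 alone, 0 with no batch term, 6 with DESeq2, 10 with voom, and 1 to 6 with single libraries left out. The total called among all tested genes went from 235 to 621 with DESeq2 and 697 with voom. For group differences that differed between batches, 1 became 0 with relative log expression factors, with total counts, and without the small, the Chil3 or both sets of libraries, 2 with no filter, 3 with DESeq2 and 0 to 12 with single libraries left out. The total among all tested genes went from 5 to 513 with DESeq2. Pairwise counts of 0 became, for cKO lung CCR6+CD69+ against lung CCR6-CD69-, 3 with relative log expression factors, 4 with no filter, 3 without the Chil3 libraries, 1 without both sets, 5 with DESeq2 and 0 to 2 with single libraries left out. Against cKO circulating cells, they became 1 with total counts, 1 with no filter, 2 without both sets and 2 with voom. For cKO lung CCR6-CD69- against circulating cells they became 1 with relative log expression factors, total counts, no filter, without the Chil3 libraries and without both sets, and 3 with DESeq2. For cKO against WT lung CCR6-CD69- they became 4 with no filter, 7 with DESeq2 and 0 to 1 with single libraries left out. In WT lung CCR6+CD69+ they became 1 with voom against lung CCR6-CD69- and 1 with no filter against circulating cells. Totals over all tested genes moved too. In those WT comparisons 20 became 157 with voom and 80 became 113 with no filter. For cKO lung CCR6+CD69+ against circulating cells, 104 became 106 with total counts, 138 with no filter and 140 with voom. Against cKO lung CCR6-CD69-, the total for cKO lung CCR6+CD69+ went from 31 to 55 with relative log expression factors, 84 with no filter and 337 with DESeq2. For cKO lung CCR6-CD69- against circulating cells, 21 became 51, 101 and 516 in that order. For cKO against WT lung CCR6-CD69-, 0 became 11 with no filter and 76 with DESeq2. Counts of ribosomal protein genes are to be read beside these totals. The cause of these moves was not tested.

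Values that turned sign were those of Rpl24 in cKO lung CCR6+CD69+ (-0.10 against lung CCR6-CD69- with voom; against circulating -0.46 in batch 1 alone, -0.43 with no batch term and -0.30 with voom), Rpl24 in cKO against WT circulating cells (0.22 in batch 1 alone, 0.26 with no batch term), Rpl35a in cKO lung CCR6-CD69- against circulating cells (-0.18 with voom, -0.13 to 1.87 with single libraries left out, lowest without replicate 4 of the former), and Rps14 in cKO against WT lung CCR6+CD69+ (-0.014 in batch 2 alone, -0.0063 to 0.52 with single libraries left out, lowest without WT replicate 1).

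With the replicate number as a replicate block in place of batch, 2 genes were called among the 6 groups and 0 in each pair of groups. Correlations of deviations between same-numbered samples ran from -0.031 to 0.086, with 0 of 12 over 0.1. With 2 libraries per group and batch, they cannot show whether same-numbered samples came from the same animal. The deposited column names use the same numbers in each population. Within a batch a group has 2 libraries, which limits the precision of every within-batch value.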
